A study of Mus musculus with 12 samples.

Results

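Glutathione is the main small thiol antioxidant of mammalian cells, and 10 genes for its synthesis, recycling, precursor uptake and export were followed across all 12 arrays of a microarray study of bone marrow-derived macrophages (BMDMs). The genes were taken by symbol through the accessions of the array's probes, and each was measured by at least 1 probe. They are Gclc, Gclm, Gss and Gsr (synthesis and recycling), Slc7a11 and Slc3a2 (cystine uptake), Abcc1, Abcc4 and Ggt1 (export and breakdown) and Glrx (reduction of glutathionylated proteins), out of 32301 genes or transcripts on the array. BMDMs from wild-type (WT) mice were compared with BMDMs from Keap1 flox/flox::LysM-Cre mice (KpCKO), in which the Cre recombinase is driven from the lysozyme M locus in myeloid cells, a deletion known to leave Nrf2 active without a stimulus. Bone marrow cells of C57BL/6 mice, 8 weeks old, grew for 7 days in M-CSF and then stayed untreated (Con) or received LPS with interferon-γ (M1) or IL-4 (M2) for 6 hours. The 6 groups (WT Con, KpCKO Con, WT M1, KpCKO M1, WT M2 and KpCKO M2) held 2 arrays each, 1 from each of 2 cultures, and each culture had 1 WT and 1 KpCKO mouse (males in culture 1, females in culture 2). The labels name no floxed allele or Cre for the WT mice, so the genotype comparison covers the Keap1 deletion together with both. Since the 3 stimuli of a culture used cells of the same mouse, 2 mice stood behind each genotype throughout, and sex, culture and mouse cannot be told apart.

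Glutathione is built from glutamate, cysteine and glycine by a pair of ATP-dependent enzymes, glutamate-cysteine ligase (the catalytic subunit Gclc with its modifier Gclm) and glutathione synthetase (Gss), and glutathione reductase (Gsr) returns its oxidised form to the reduced one with NADPH. Cysteine supply often limits the pathway, and macrophages take up cystine through system xc-, in which Slc7a11 (xCT) exchanges cystine for glutamate and Slc3a2 is the heavy chain that carries it to the membrane. Keap1 marks the transcription factor Nrf2 for degradation, and Nrf2 acts with small Maf proteins at antioxidant response elements (AREs), for which Gclc, Gclm and Slc7a11 are textbook target genes.

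Promoter sequences are shown for the genes on which the genotype results turn and for which a window was at hand. RefSeq promoter windows (GRCm38.p6, 250 bases before to 50 bases after each start site) matched 7 of the 10 genes, with several windows for some, and none for Gclc, Gsr and Abcc1. Each was searched on both strands for the ARE letters TGACNNNGC and TGAGNNNGC and for the amino acid response letters TGATGNAA, which ATF4 and C/EBP factors bind. The 250 bases before the start site are printed 5′ to 3′ on the strand of the gene, with matches in capitals.
Gclm (chr3:122245307-122245556, plus strand): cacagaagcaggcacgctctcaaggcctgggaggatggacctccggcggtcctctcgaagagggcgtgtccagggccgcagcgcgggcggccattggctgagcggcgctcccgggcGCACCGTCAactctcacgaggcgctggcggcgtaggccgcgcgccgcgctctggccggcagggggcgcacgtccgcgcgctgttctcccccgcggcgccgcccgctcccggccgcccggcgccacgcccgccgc
Slc7a11 (chr3:50443614-50443863, minus strand): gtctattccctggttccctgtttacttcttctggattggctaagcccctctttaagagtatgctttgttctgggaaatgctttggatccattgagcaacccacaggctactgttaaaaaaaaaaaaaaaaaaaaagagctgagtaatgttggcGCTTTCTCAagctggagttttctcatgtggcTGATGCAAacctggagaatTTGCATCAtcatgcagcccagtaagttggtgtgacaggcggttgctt
Abcc4 (chr14:118706220-118706469, minus strand): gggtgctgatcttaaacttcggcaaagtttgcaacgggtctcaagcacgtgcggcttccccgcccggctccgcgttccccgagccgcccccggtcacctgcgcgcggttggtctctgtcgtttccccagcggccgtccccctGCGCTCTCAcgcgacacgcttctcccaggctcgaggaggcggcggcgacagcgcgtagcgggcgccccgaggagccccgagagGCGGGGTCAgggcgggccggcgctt
Gss (chr2:155592811-155593060, minus strand): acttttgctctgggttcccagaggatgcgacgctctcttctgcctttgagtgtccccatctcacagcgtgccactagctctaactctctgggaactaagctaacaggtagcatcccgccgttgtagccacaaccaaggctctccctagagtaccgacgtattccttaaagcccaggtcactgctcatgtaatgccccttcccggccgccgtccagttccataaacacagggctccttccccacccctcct
The Gclm window held 1 match to TGACNNNGC on its minus strand (GCACCGTCA), which began 134 bases before the start site. The Slc7a11 window held 1 match to TGAGNNNGC on the minus strand (GCTTTCTCA, 97 bases before the start site) and 2 matches to TGATGNAA, 1 on each strand (TGATGCAA and TTGCATCA, 66 and 47 bases before it). The Abcc4 window printed held GCGCTCTCA (TGAGNNNGC, minus strand) and GCGGGGTCA (TGACNNNGC, minus strand), 108 and 25 bases before the start site, and a second RefSeq window of Abcc4 held TGACTCTGC (TGACNNNGC, plus strand) 23 bases before its own start site. Ggt1 had 4 windows, of which windows 1, 2 and 3 held at least 1 ARE form each and window 4 held none. No match overlapped another in the windows printed, and the windows of Gss, Slc3a2 and Glrx held none of the 3 motifs. Over all 32851 RefSeq promoter windows, 27.8% held at least 1 of the ARE forms, 3.97% held TGATGNAA and 0.0700% held it more than once. A match says only that the letters are there, and their absence from a window says nothing of other sites of the gene.

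The genotype labels held on every array. The log2 level of Keap1 (log2 of the processed signal over the 75th percentile of the array) was lower in KpCKO than in WT by 1.46 in Con (difference -1.46 ± 0.24 SE), and the differences in M1 and M2 were -1.71 and -1.81, while Nqo1, a quinone reductase and classical Nrf2 target, was 3.23, 3.50 and 3.52 higher. The adjusted p of Keap1 was 0.0336, 0.00773 and 0.0162, and that call was lost without any 1 array in Con (adjusted p 0.167 to 0.225), without KpCKO M1 replicate 1 (-1.47, adjusted p = 0.0524) and without either WT M2 array or KpCKO M2 replicate 2 (adjusted p 0.0843 to 0.139), while over the 3 stimuli it was 0.000709. The 75th percentile of signal was 548 and 757 in the WT M1 arrays, 787 and 906 in the KpCKO M1 arrays and 966 to 1166 elsewhere, and 59.4 to 71.5% of probes were well above background. All 4 arrays of a stimulus shared a slide, so stimulus and slide cannot be told apart, whereas both genotypes were present on every slide. All 6 macrophage markers measured (Adgre1, Csf1r, Itgam, Mertk, Fcgr1 and Lyz2) were well above background on all 12 arrays. Their summed signal over the 75th percentile was lower in KpCKO, at 375 to 425 against 507 to 550 in WT in Con, 496 to 562 against 665 to 804 in M1 and 406 to 441 against 473 to 524 in M2. The sum includes Lyz2, the lysozyme M gene itself, whose locus carries the Cre in KpCKO, and its mean log2 level was 7.00 in WT Con and 6.04 in KpCKO Con. Of the 6 markers, 3 (Adgre1, Fcgr1 and Itgam) fell in KpCKO in M1, where 8.58% of all genes fell, none was called in Con or M2, and 3 (Adgre1, Fcgr1 and Lyz2) fell over the 3 stimuli, where 8.53% fell. The neutrophil sums overlapped between genotypes (3.78 to 16.2 in KpCKO and 7.40 to 16.6 in WT), as did the fibroblast sums (22.1 to 52.9 and 31.7 to 40.8). In culture 2 the neutrophil sum was lower in KpCKO in Con (5.18 against 7.40), M1 (6.84 against 9.82) and M2 (3.78 against 7.65). So was the fibroblast sum there (27.8 against 40.8, 23.2 against 31.7 and 22.1 against 33.9). In culture 1 the fibroblast sum was higher in KpCKO (52.9 against 34.6, 40.5 against 33.9 and 42.9 against 37.3). The neutrophil sums of culture 1 were 16.2 against 16.6, 13.0 against 13.0 and 14.2 against 16.5. Single markers were called over the 3 stimuli, with the neutrophil genes Mpo at 1.06 (adjusted p = 0.0350) and Retnlg at -1.20 (adjusted p = 0.00963) and the stromal gene Dcn at -2.72 (adjusted p = 0.0131), and in M1 the dendritic cell gene Xcr1 at -1.05 (adjusted p = 0.0183). Elane and Ms4a1, defining markers of neutrophil precursors and B cells, were not well above background on any array. The T cell sum was 0.110 to 0.213 in Con and M2. In M1 it was 1.58 and 1.89 in KpCKO and 2.39 and 3.18 in WT, mostly from Lck. WT M1 replicate 1 has no Cd3e value. KpCKO M2 replicate 1, left out of the range for the same reason, gave 0.0238. The dendritic cell sum in M1 was also lower in KpCKO (0.292 to 0.404 against 0.563 to 0.586). So were the B cell sum (0.0854 to 0.0901 against 0.0986 to 0.127) and the erythroid sum (0.168 to 0.176 against 0.184 to 0.205). In M2 the dendritic cell sum was higher in KpCKO (0.302 to 0.351 against 0.273 to 0.293) and the B cell sum lower. In Con the T cell sum was higher in KpCKO and the others overlapped. The part of other cells or of fewer macrophages in the results was not tested, and in bulk samples fewer cells of a type and less RNA per cell cannot be told apart.

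In untreated BMDMs, loss of Keap1 was accompanied by higher expression of every synthesis and recycling gene, of the cystine carrier Slc7a11 and of the exporter Abcc1. Of the 9 genes tested, 6 rose (log2 differences 0.75 to 3.17) and none fell at an adjusted p under 0.05, where 1.37% of all 22376 genes tested rose and 0.818% fell. In M1-BMDMs, 7 of 9 rose (1.0 to 3.03) and Glrx fell, against 7.39% and 8.58% of all genes. In M2-BMDMs, Gclm, Gsr and Slc7a11 rose (1.66 to 2.83) and none fell, against 1.28% and 0.644%. Across the 9 genes the median log2 difference stood at 1.39 for Con, 1.04 for M1 and 0.78 for M2, against 0.00, -0.09 and 0.02 across all genes. Averaged over the 3 stimuli, 7 rose and Glrx fell, where 8.6% of all genes rose and 8.53% fell. Slc3a2, the heavy chain of the cystine carrier, was not called in any of the 4 comparisons.

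**Figure D1:**
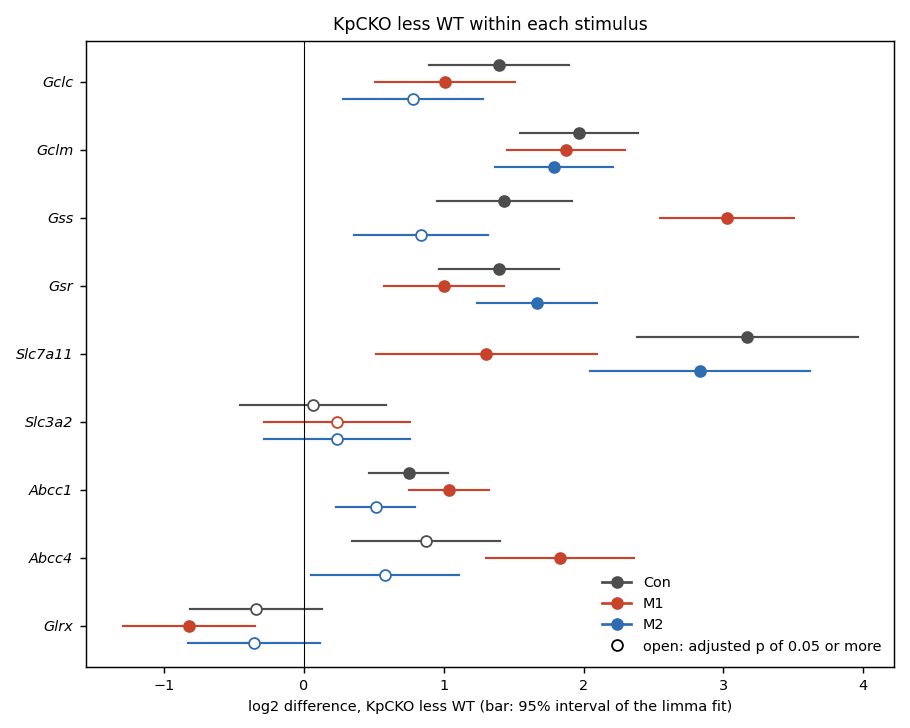
Log2 difference of KpCKO less WT (x axis) for the 9 genes tested (y axis) in untreated, M1 and M2 BMDMs. Points are limma estimates, bars 95% intervals, and filled points have an adjusted p under 0.05. Slc7a11 had its widest genotype gap in Con (3.17) and M2 (2.83), Gss in M1 (3.03), and Glrx lies left of 0.

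These calls rest on 2 arrays a group and on a shared estimate of the spread. With each comparison fitted in limma on its own 4 arrays, no gene passed in Con, M1 or M2, Nqo1 included, and 7, 8 and 8 of the 9 had an unadjusted p under 0.05, as did 3445, 5231 and 3613 of all genes. Leaving out WT Con replicate 1 or KpCKO Con replicate 1 left 1 call in Con, WT Con replicate 2 left 2 and KpCKO Con replicate 2 left 3. In M1, 5 and 6 calls were left without WT M1 replicates 1 and 2 and 4 without either KpCKO M1 array. In M2, no call was left without either WT M2 array and 2 without KpCKO M2 replicate 1. Over the 3 stimuli, 7 or 8 calls held without any single array. Each mouse gave 1 array per stimulus, so leaving out 1 array never removed a mouse from that average. The main model held no term for mouse, so the 3 arrays of a mouse counted as separate in it.

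Gclm, the modifier subunit that raises the efficiency of glutamate-cysteine ligase, differed between genotypes by nearly the same amount under every stimulus. In WT, its log2 levels were 0.95 and 0.89 in Con, 1.88 and 1.50 in M1 and 0.39 and 0.01 in M2. In KpCKO the corresponding levels were 3.22 and 2.56, 3.81 and 3.31, and 2.40 and 1.57. Within each stimulus both KpCKO arrays lay above both WT arrays. The difference was 1.97 ± 0.18 (SE, adjusted p = 0.00421) in Con, 1.87 ± 0.18 (adjusted p = 0.00206) in M1 and 1.79 ± 0.18 (adjusted p = 0.00608) in M2, or 3.91-fold, 3.66-fold and 3.45-fold. The M2 call was lost without WT M2 replicate 1 (1.73, adjusted p = 0.0680) or replicate 2 (1.84, adjusted p = 0.0524), and without the culture term (adjusted p = 0.0704).

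Gclc, the catalytic subunit, rose in KpCKO in Con and M1 and was higher in both cultures in M2 without passing the test. In WT, its log2 levels were 2.41 and 1.90 in Con, 2.66 and 2.35 in M1 and 2.61 and 2.10 in M2. The KpCKO arrays gave, in the same order, 4.09 and 3.01, 3.89 and 3.13 and 3.68 and 2.58. The KpCKO array of culture 2 in M2 thus lay within the WT range, while in Con and M1 the genotypes did not overlap. The difference was 1.40 ± 0.21 (SE, adjusted p = 0.0260) in Con, 1.01 ± 0.21 (adjusted p = 0.0254) in M1 and 0.78 ± 0.21 (adjusted p = 0.157) in M2. The Con call was lost without any 1 of its 4 arrays (1.18 to 1.61, adjusted p 0.0649 to 0.201), with no filter on dim genes (adjusted p = 0.0532) and without the culture term (adjusted p = 0.383), and the M1 call without WT M1 replicate 1 (0.77, adjusted p = 0.0743) or either KpCKO M1 array (0.98 and 1.04, adjusted p = 0.124 and 0.0684) and without the culture term (adjusted p = 0.251). Averaged over the stimuli the difference was 1.06 ± 0.12 (adjusted p = 0.00225), and without the culture term its adjusted p was 0.0563. No neighbouring pair in the order of its 6 group means was further apart than the summed SDs of the pair.

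Gss, which joins glycine to γ-glutamylcysteine in the last step of synthesis, was the only member whose 6 KpCKO arrays all lay above its 6 WT arrays, a pattern that 1.04% of 22105 genes showed. Its log2 levels in WT were 0.13 and 0.44 in Con, -0.10 and -0.01 in M1 and 0.05 and 0.34 in M2. In KpCKO they were 1.94 and 1.50 in Con, 3.12 and 2.82 in M1 and 1.08 and 0.99 in M2. WT levels thus stayed within a narrow range, whereas the KpCKO groups were ordered M2, Con and M1 with gaps wider than the summed SDs of neighbours. The genotype difference was 1.43 ± 0.20 (SE, adjusted p = 0.0196) in Con, 3.03 ± 0.20 (adjusted p = 0.000711) in M1, an 8.15-fold difference, and 0.84 ± 0.20 (adjusted p = 0.117) in M2. The Con call was lost without WT Con replicate 1 (1.23, adjusted p = 0.156), WT Con replicate 2 (1.63, adjusted p = 0.0713) or KpCKO Con replicate 1 (1.18, adjusted p = 0.127).

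Gsr, the NADPH-dependent reductase of glutathione disulphide, changed with both genotype and stimulus. In WT, its log2 levels were 1.55 and 1.48 in Con, 2.87 and 2.98 in M1 and -0.06 and -0.20 in M2. In KpCKO the corresponding levels were 3.11 and 2.70, 3.95 and 3.91 and 1.84 and 1.22. The genotypes did not overlap under any stimulus, but the WT M1 arrays lay at the level of the KpCKO Con arrays. KpCKO exceeded WT by 1.39 ± 0.18 (SE, adjusted p = 0.0148) in Con, 1.0 ± 0.18 (adjusted p = 0.0167) in M1 and 1.66 ± 0.18 (adjusted p = 0.00826) in M2. The Con call was lost without any 1 of its 4 arrays (1.26 to 1.52, adjusted p 0.0638 to 0.137). The M1 call was lost without WT M1 replicate 1 (0.82, adjusted p = 0.0501) or either KpCKO M1 array (1.10 and 0.91, adjusted p = 0.0677 and 0.0605), and the M2 call without either WT M2 array (1.63 and 1.70, adjusted p = 0.0812 and 0.0665). Its 3 probes gave the same direction in each genotype comparison.

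**Figure D2:**
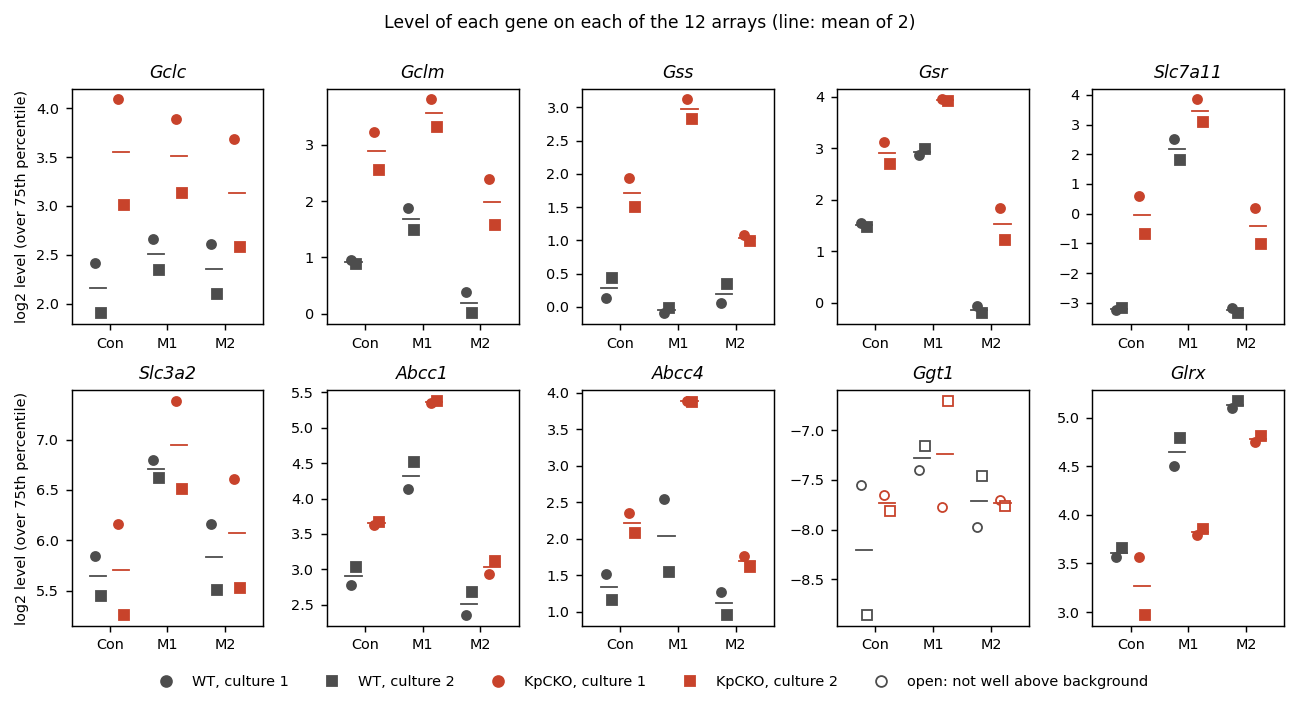
Log2 level of each of the 10 genes (y axis, log2 of signal over the 75th percentile of the array, own scale per gene) on every array by stimulus (x axis), WT in grey and KpCKO in red. Circles are culture 1, squares culture 2, lines the mean of 2 arrays, and open symbols are not well above background. Gss shows 6 KpCKO arrays above all 6 WT arrays, Slc7a11 rises in M1 in both genotypes, and Ggt1 is open throughout.

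Slc7a11, the cystine-glutamate exchanger that supplies the pathway with cysteine, had the largest genotype difference of the 9 genes in Con and M2 and the largest M1 response in both genotypes. Its log2 levels were -3.23 and -3.18 in WT Con and -3.16 and -3.35 in WT M2, against 0.61 and -0.68 in KpCKO Con and 0.18 and -1.03 in KpCKO M2. In M1 they were 2.52 and 1.80 in WT and 3.85 and 3.08 in KpCKO. The WT M1 arrays therefore lay above every Con and M2 array of either genotype. KpCKO exceeded WT by 3.17 ± 0.33 (SE, adjusted p = 0.00660) in Con, 9.01-fold, by 2.83 ± 0.33 (adjusted p = 0.0103) in M2, 7.12-fold, and by 1.30 ± 0.33 (adjusted p = 0.0427) in M1, 2.47-fold.

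The M1 difference of Slc7a11 was lost without any 1 of its 4 arrays (1.26 to 1.35, adjusted p 0.0942 to 0.176), without the culture term (adjusted p = 0.184), with no filter on dim genes (adjusted p = 0.0638) and with the mean of its probes (1.22, adjusted p = 0.0513), and the dimmest of its 3 probes gave 0.98 (adjusted p = 0.0703). The Con call was lost without WT Con replicate 1 (2.73, adjusted p = 0.0510) or KpCKO Con replicate 1 (2.81, adjusted p = 0.0602), and the M2 call without WT M2 replicate 1 (2.53, adjusted p = 0.0925), WT M2 replicate 2 (3.13, adjusted p = 0.0512) or KpCKO M2 replicate 1 (2.52, adjusted p = 0.0801) and without the culture term (adjusted p = 0.0659). With normexp, which was run on the median signal and median background of each spot in place of the processed signal, the differences were 2.57 in Con, 1.22 in M1 and 1.86 in M2 (adjusted p = 0.0577, 0.169 and 0.149), the last more than 1.5 times smaller.

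Slc3a2, the heavy chain that Slc7a11 shares with several other amino acid carriers, did not pass the genotype test under any stimulus. In WT, its log2 levels were 5.84 and 5.45 in Con, 6.80 and 6.62 in M1 and 6.16 and 5.50 in M2. The KpCKO arrays gave, in the same order, 6.16 and 5.26, 7.38 and 6.50 and 6.61 and 5.53. The genotypes overlapped in every stimulus, and KpCKO was higher in 4 of 6 pairs of a culture and a stimulus. The 95% interval of the difference ran from -0.46 to 0.59 in Con, -0.29 to 0.76 in M1 and -0.29 to 0.76 in M2, which lies below the Slc7a11 interval in Con (2.38 to 3.96) and in M2 (2.04 to 3.62) and overlaps it in M1 (0.52 to 2.09).

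Abcc1 and Abcc4 are ATP-driven pumps, of which Abcc1 (MRP1) exports glutathione conjugates and oxidised glutathione and Abcc4 (MRP4) exports cyclic nucleotides, prostanoids and conjugates together with glutathione. In WT, Abcc1 had log2 levels of 2.77 and 3.03 in Con, 4.13 and 4.52 in M1 and 2.35 and 2.67 in M2. In KpCKO the corresponding levels were 3.63 and 3.67, 5.35 and 5.38 and 2.93 and 3.12. Both KpCKO arrays lay above both WT arrays in each stimulus. The difference was 0.75 ± 0.12 (SE, adjusted p = 0.0311) in Con, 1.04 ± 0.12 (adjusted p = 0.00414) in M1 and 0.51 ± 0.12 (adjusted p = 0.108) in M2. The Con call was lost without any 1 of its 4 arrays (0.65 to 0.85, adjusted p 0.0916 to 0.225), with normexp (0.78, adjusted p = 0.0945), with no filter on dim genes (adjusted p = 0.0734) and without the culture term (adjusted p = 0.155). With trended and robust variances the M2 difference passed (adjusted p = 0.0457).

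In WT, Abcc4 had log2 levels of 1.52 and 1.17 in Con, 2.55 and 1.54 in M1 and 1.27 and 0.96 in M2. The KpCKO arrays gave, in the same order, 2.35 and 2.09, 3.88 and 3.87 and 1.77 and 1.62. The genotypes did not overlap in any stimulus, and the WT M1 arrays were the least alike of its pairs. KpCKO exceeded WT by 1.83 ± 0.22 (SE, adjusted p = 0.00511) in M1, 3.56-fold. In Con the difference was 0.88 ± 0.22 (adjusted p = 0.124), and the dimmer of its 2 probes gave 1.03 (adjusted p = 0.0110) and the mean of both 0.95 (adjusted p = 0.0386). In M2 it was 0.58 ± 0.22 (adjusted p = 0.308). Ggt1, the surface enzyme that cleaves extracellular glutathione, was not well above background on any of the 12 arrays (log2 levels -8.86 to -6.71) and was not tested.

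Glrx, the glutaredoxin that uses glutathione to reduce mixed disulphides on proteins, went the other way. In WT, its log2 levels were 3.57 and 3.66 in Con, 4.50 and 4.79 in M1 and 5.09 and 5.17 in M2. In KpCKO the corresponding levels were 3.56 and 2.97, 3.79 and 3.85 and 4.75 and 4.81. The KpCKO array was the lower one in 6 of 6 pairs, although the gap in culture 1 of Con was close to 0, and the genotypes did not overlap in any stimulus. Glrx fell by 0.83 on the log2 scale in M1 (difference -0.83 ± 0.20 SE, adjusted p = 0.0371), and the differences of -0.34 in Con and -0.36 in M2 did not pass (adjusted p = 0.537 and 0.493). The M1 call was lost without WT M1 replicate 2 (-0.65, adjusted p = 0.174) or either KpCKO M1 array (-0.78 and -0.87, adjusted p = 0.162 and 0.0902), with quantile normalization (-0.61, adjusted p = 0.0844), with normexp (-0.72, adjusted p = 0.0844), with no filter on dim genes (adjusted p = 0.0590) and without the culture term (adjusted p = 0.0537). Averaged over the stimuli it was -0.51 ± 0.11 (adjusted p = 0.0272), and this call was lost without any 1 of 9 arrays (-0.53 to -0.45, adjusted p 0.0504 to 0.0773), namely all except both KpCKO Con arrays and WT M1 replicate 1, and with normexp (-0.44, adjusted p = 0.0534).

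LPS with interferon-γ raised Slc7a11, Slc3a2, Abcc1, Abcc4, Gsr and Gclm in both genotypes. Against Con, 7 of 9 genes rose in WT M1-BMDMs and none fell, where 34.5% of all genes rose and 28.6% fell, and 7 of 9 rose in KpCKO M1-BMDMs and none fell, where 24.8% rose and 25.4% fell. Slc7a11 rose by 5.37 ± 0.33 (SE, adjusted p = 2.36e-05) in WT, 41.4-fold, and by 3.50 ± 0.33 (adjusted p = 0.000219) in KpCKO, 11.3-fold. Abcc1 rose by 1.42 in WT and 1.71 in KpCKO (SE 0.12 for both, adjusted p = 7.64e-05 and 6.51e-05), and Gsr by 1.41 and 1.02 (SE 0.18, adjusted p = 0.000512 and 0.00319). Slc3a2 rose by 1.06 and 1.24 (SE 0.22, adjusted p = 0.00480 and 0.00333), Gclm by 0.76 and 0.67 (SE 0.18, adjusted p = 0.00807 and 0.0181) and Abcc4 by 0.70 and 1.66 (SE 0.22, adjusted p = 0.0289 and 0.000941). Gss rose in KpCKO (1.25 ± 0.20, adjusted p = 0.00211), with -0.34 ± 0.20 (adjusted p = 0.182) in WT. Glrx rose in WT (1.04 ± 0.20, adjusted p = 0.00340) and was 0.55 ± 0.20 (adjusted p = 0.0540) in KpCKO. Gclc, the catalytic subunit, was at 0.35 (adjusted p = 0.187) in WT and -0.04 (adjusted p = 0.894) in KpCKO.

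Several of these M1 responses depended on scaling or on 1 array. With quantile normalization 4 of the 7 WT calls were left, with Slc3a2 at 0.19 (adjusted p = 0.398), Glrx at 0.43 (adjusted p = 0.0934) and Abcc4 at 0.50 (adjusted p = 0.0686) in WT, and in KpCKO Gclm at 0.37 (adjusted p = 0.128). The median log2 difference of all genes between WT M1 and WT Con was 0.13 as scaled here, -0.08 with quantile normalization and 0.40 with normexp, under which Abcc4 in WT was 0.42 (adjusted p = 0.285). Gclm in WT lost its call without WT Con replicate 1 (0.52, adjusted p = 0.0566), and Abcc4 in WT without WT Con replicate 1 or 2 (0.70 each, adjusted p = 0.101 and 0.109) or WT M1 replicate 1 (0.31, adjusted p = 0.115). Gclm in KpCKO lost its call without KpCKO Con replicate 2 (0.55, adjusted p = 0.115) or either KpCKO M1 array (0.65 and 0.69, adjusted p = 0.0741 and 0.0710), and Glrx in KpCKO gained one without KpCKO Con replicate 1 (0.91, adjusted p = 0.00371) and under 3 of the other settings (adjusted p 0.0321 to 0.0490). Without the culture term the calls of Gclm, Slc3a2 and Abcc4 in WT and of Gclm and Slc3a2 in KpCKO were lost (adjusted p 0.0700 to 0.155).

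With IL-4, Glrx rose and Gsr and Gclm fell in both genotypes. In WT M2-BMDMs Glrx rose by 1.52 ± 0.20 (SE, adjusted p = 0.00490), and Gsr fell by 1.65 (difference -1.65 ± 0.18, adjusted p = 0.00270) and Gclm by 0.72 (difference -0.72 ± 0.18, adjusted p = 0.0364), where 8.62% of all genes rose and 8.2% fell. In KpCKO M2-BMDMs Glrx rose by 1.51 ± 0.20 (adjusted p = 0.00775), and Gsr (-1.37 ± 0.18, adjusted p = 0.00775), Gclm (-0.91 ± 0.18, adjusted p = 0.0262) and Abcc1 (-0.62 ± 0.12, adjusted p = 0.0243) fell, where 5.66% rose and 4.53% fell. Abcc1 in WT was at -0.39 ± 0.12 (adjusted p = 0.0703), and both of its dimmer probes gave -0.72 (adjusted p = 0.00622 and 0.00792), while 4 other settings also called it (-0.61 to -0.39, adjusted p 0.0130 to 0.0473). Slc7a11 was at -0.04 ± 0.33 (adjusted p = 0.945) in WT and -0.38 ± 0.33 (adjusted p = 0.516) in KpCKO.

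Of the M2 calls, Gclm in WT was lost without WT Con replicate 2 (-0.48, adjusted p = 0.204) or either WT M2 array (-0.67 and -0.78, adjusted p = 0.165 and 0.138), and in KpCKO without either KpCKO Con array (-0.79 and -1.02, adjusted p = 0.136 and 0.0969) or KpCKO M2 replicate 2 (-0.69, adjusted p = 0.143). Abcc1 in KpCKO was lost without any 1 of its 4 arrays (-0.72 to -0.52, adjusted p 0.0820 to 0.128), Gsr in KpCKO without KpCKO Con replicate 1 (-1.24, adjusted p = 0.0574) and Glrx in KpCKO without KpCKO M2 replicate 2 (1.47, adjusted p = 0.0557). Normexp, no filter on dim genes and no culture term each ended the calls of Gclm in both genotypes and of Abcc1 in KpCKO (adjusted p 0.0523 to 0.252).

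**Figure D3:**
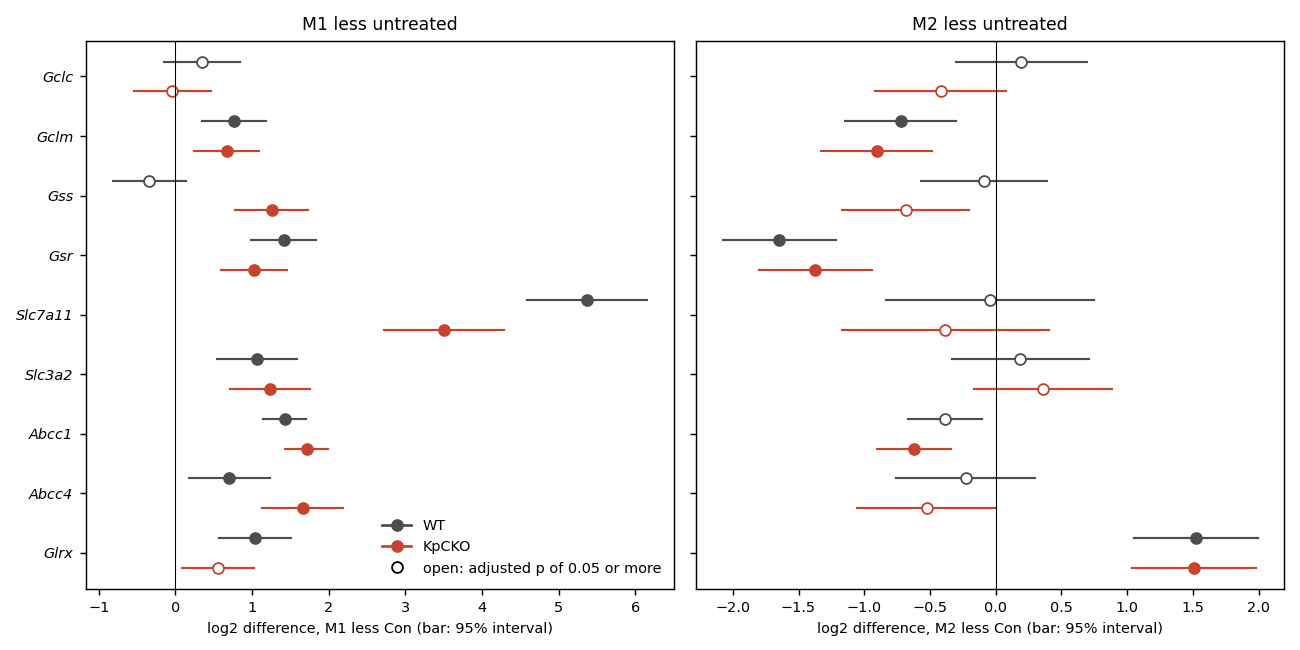
Log2 difference of M1 less Con (left) and of M2 less Con (right) on the x axes for the 9 genes tested (y axis), WT in grey and KpCKO in red. Points are limma estimates, bars 95% intervals, filled points have an adjusted p under 0.05, and both panels share the Con arrays. Slc7a11 lies furthest right in M1 (5.37 and 3.50), and in M2 Gsr lies to the left and Glrx to the right in both genotypes.

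Whether the response to a stimulus differed between genotypes was tested as an interaction, and no member passed in limma. For M1, 0.0447% of all genes had a larger and 0.0268% a smaller response in KpCKO at an adjusted p under 0.05, and 3 of the 9 genes had an unadjusted p under 0.05, as did 3663 of the 22376 genes tested. The M1 response of Slc7a11 was smaller in KpCKO by 1.87 on the log2 scale (difference -1.87 ± 0.47 SE, adjusted p = 0.170), smaller in both cultures (-2.52 and -1.22). That of Gss was larger by 1.59 ± 0.29 (adjusted p = 0.111) and that of Abcc4 by 0.96 ± 0.32 (adjusted p = 0.234), larger in both cultures for both. Without WT M1 replicate 1 the Abcc4 difference was 1.35 and passed (adjusted p = 0.0285). For M2, 0.00894% of all genes had a larger and 0% a smaller response, and no member had an unadjusted p under 0.05 against 451 of all genes, with differences from -0.61 to 0.27.

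Other genes of glutathione metabolism were taken from a list of 50, of which 48 were tested. KpCKO against WT gave 4 higher and 1 lower in Con, 11 higher and 4 lower in M1 and 1 higher and 1 lower in M2, with medians of 0.03, 0.18 and -0.01. The shares of all genes were 1.37% higher and 0.818% lower in Con, 7.39% and 8.58% in M1 and 1.28% and 0.644% in M2. Of the 11 genes of the γ-glutamyl cycle and glutathione breakdown that were tested, 2 rose in Con, 3 in M1 and none in M2. Ggt5, a γ-glutamyl transferase that acts on leukotriene C4 as well as glutathione, was higher by 1.76 ± 0.22 (SE, adjusted p = 0.0129) in Con and 2.86 ± 0.22 (adjusted p = 0.00104) in M1, and at 0.44 (adjusted p = 0.427) in M2. Its log2 levels in Con were -2.69 and -1.61 in WT and -0.82 and 0.03 in KpCKO. Dpep1, a dipeptidase that cleaves cysteinylglycine, rose by 0.69 ± 0.12 (adjusted p = 0.0366) in Con and 0.82 ± 0.12 (adjusted p = 0.00802) in M1. Both Con calls were lost without any 1 of the 4 arrays (adjusted p 0.0782 to 0.123 for Ggt5 and 0.167 to 0.263 for Dpep1) and without the culture term (adjusted p = 0.344 and 0.607). The M1 call of Dpep1 was lost without KpCKO M1 replicate 1 (0.79, adjusted p = 0.0553), with normexp (0.50, adjusted p = 0.210) and without the culture term (adjusted p = 0.166), whereas that of Ggt5 held without any 1 array and was 1.88, still called, with normexp. The other probe of Ggt5 gave 1.90 (adjusted p = 0.0760) in Con and 4.09, called, in M1.

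Among 8 genes of glutamate and glycine supply, Slc6a9, the glycine transporter GlyT1, was higher by 2.03 ± 0.31 (SE, adjusted p = 0.0286) in Con and 3.31 ± 0.31 (adjusted p = 0.00206) in M1, and at 0.78 (adjusted p = 0.326) in M2. Its log2 levels in M1 were 1.96 and 0.56 in WT and 4.82 and 4.33 in KpCKO, with no overlap. Its Con call was lost without any 1 of the 4 arrays (1.76 to 2.29, adjusted p 0.0984 to 0.204), and its M1 call held without any 1 array. Of the 4 tested light chains other than Slc7a11 that pair with Slc3a2, Slc7a8 (LAT2, a carrier of neutral amino acids) fell by 1.22 in Con (difference -1.22 ± 0.13), 1.02 in M1 (difference -1.02 ± 0.13) and 1.07 in M2 (difference -1.07 ± 0.13), with adjusted p of 0.00680, 0.00566 and 0.0111. Esd, which completes the glutathione-dependent removal of formaldehyde, rose by 1.35, 0.80 and 1.49 (SE 0.17, adjusted p = 0.0129, 0.0261 and 0.00969). Leaving out an array ended the Slc7a8 calls in Con, except without KpCKO Con replicate 1, and in M2 (adjusted p 0.0518 to 0.102) but not in M1, and ended the Esd calls except without KpCKO Con replicate 2, WT M1 replicate 2 or KpCKO M2 replicate 2 (adjusted p 0.0581 to 0.132). Without the culture term none of the 3 Slc7a8 calls was left (adjusted p 0.0622 to 0.159). The 5 genes of methionine and cysteine metabolism (Mat2a, Ahcy, Cbs, Cth and Cdo1) gave no rise and 1 fall, in M1. The 6 glutathione peroxidases gave 1 rise, also in M1. In WT, M1 raised 15 and lowered 19 of the 48, where 34.5% of all genes rose and 28.6% fell, and M2 raised 8 and lowered 4, where 8.62% rose and 8.2% fell. In KpCKO the counts were 15 and 15 in M1 (24.8% and 25.4% of all genes) and 2 and 2 in M2 (5.66% and 4.53%).

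**Figure D4:**
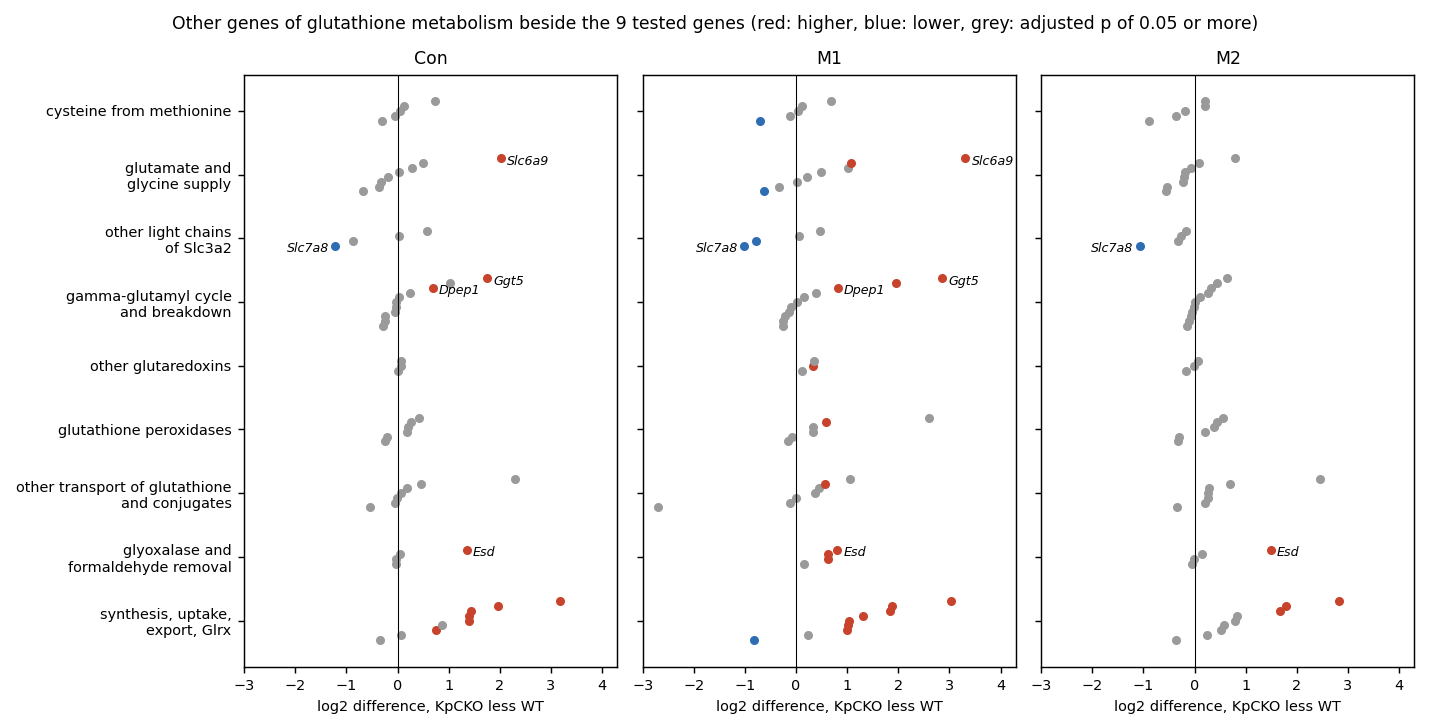
Log2 difference of KpCKO less WT (x axis) in Con, M1 and M2 for the 48 other genes of glutathione metabolism by group and, in the bottom row, the 9 genes tested among the 10. Each point is a gene, red where it rose and blue where it fell at an adjusted p under 0.05, grey otherwise, and the 5 genes described in the text are labelled where they passed. The bottom row has 6, 7 and 3 red points, and the other rows together 4, 11 and 1.

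The profiles most like those of 3 members over the 12 arrays were sought among 12141 genes well above background on every array, as a description, since the arrays share mice, cultures and slides. Those of Gclm were Slc11a1, Panx1, Cap1, Me1 and Esd (Pearson r 0.953 to 0.975). Those of Slc7a11 were Prdx1, Txnrd1, Bst1, Mtfr2 and Grina (0.976 to 0.981), and those of Gclc were Ascl3, Mgst1, Sulf1, Plxna1 and Cdkn1c (0.932 to 0.943). With the mean of each stimulus removed, Gclm correlated with Gsr at 0.967 and with Slc7a11 at 0.951, and Gsr with Slc7a11 at 0.964. Slc3a2 with Slc7a11 stood at 0.458 and Glrx with Abcc4 at -0.870. The genotype difference stays in these values, so genes that differ between genotypes correlate through it. The correlations are thus not separate from the genotype calls, and no background over all genes was computed.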

How the data were processed

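Total RNA of 12 BMDM samples was labelled with Cy3 and hybridised to single-colour mouse arrays. Per the file headers, the deposited files hold the intensity of each spot after background subtraction by Agilent Feature Extraction 10.7.3.1. A second deposited table gives log2 values, normalized by the authors in GeneSpring per the methods. Set against the scanner values here, its columns had slopes of 0.9997 to 1.0004 on the log2 level centred on each probe's median, with column medians of -0.07 to 0.31. It served as an alternative.

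Intensity was turned into log2 and the 75th percentile of the array subtracted. Outlier spots were dropped, spots of a probe averaged, and the brightest probe (over 12 arrays) stood for a gene. Of 41174 probes, 26695 were named through RefSeq. Genes with any probe well above background on each array of at least 1 group were kept. The probe that met this need not be the brightest one. Kept genes entered limma 3.58.1 (R 4.3.3), a model of 6 groups and culture with 5 residual degrees of freedom. Benjamini-Hochberg adjustment ran over 22376 genes, with a threshold of 0.05. The number of arrays limits the precision. The fit was tested on simulated data.

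Culture was a block because the design text puts 1 mouse of each genotype in each culture. Same-numbered arrays also deviated together (15 pairs of groups, r 0.161 to 0.597). Groups of the same genotype share mice and the cultures differ in sex, so culture, mouse and sex cannot be told apart there. The genes, lists and tests were chosen with earlier results of these data known. Other pathway genes were named where they passed in the same direction in 2 or more of Con, M1 and M2. Alternatives covered scaling, background, the matrix, filters, probes, variances, blocks, arrays in the fit, an unpaired t-test and leaving out each array.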

Additional observations from a re-analysis of the deposited data

Results flagged for a closer look

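The M1 response of Gss had opposite signs in the genotypes, in both cultures of each. Its log2 level in M1 less that in Con was -0.23 and -0.45 in the WT cultures and 1.18 and 1.33 in the KpCKO cultures, a difference between responses of 1.59. The interaction test in limma did not pass after adjustment (adjusted p = 0.111). Nor did the WT response (adjusted p = 0.182), while the KpCKO response did (adjusted p = 0.00211). The M2 response of Gclc was 0.20 in both WT cultures and -0.41 and -0.43 in the KpCKO cultures, a difference of -0.61 (adjusted p = 1.0). Neither Gclc response passed on its own in limma (adjusted p = 0.571 in WT and 0.257 in KpCKO). Both genes were flagged because the signs were opposite in both cultures, and how many of all genes show such signs was not counted. Each response sets arrays of different slides against each other, and the part of the slide was not tested.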

How the results depend on the processing

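Of 1882 recomputed values for single genes, 1557 kept their direction and their side of the threshold, 292 lost the call (102 of them without 1 array), 22 gained one and 11 changed sign, none of these 11 for a called result. The 1557 include values of results that were never called, which had no call to lose. Among called genotype differences, 9 of 18 values lost the call for Gclc in Con and 12 of 20 for Slc7a11 in M1. For Gclm in M1 it was 2 of 18. The sign changes were of Slc7a11 in M2 against Con in WT, 0.38 with normexp, and of values that left out 1 array, whose ranges were -0.49 to 0.40 for that result, -0.11 to 0.24, -0.0635 to 0.53 and -0.00402 to 0.48 for the genotype difference of Slc3a2 in Con, M1 and M2, -0.70 to 0.0103 for that of Glrx in Con, -0.26 to 0.18 for Gclc in M1 against Con in KpCKO and -0.29 to 0.11 for Gss in M2 against Con in WT. The number of members called for KpCKO against WT was 6 in Con, 8 in M1, 3 in M2 and 8 over the 3 stimuli. Fitted on only the arrays compared it was 0 in Con, 0 in M1 and 0 in M2, and with the methods' t-test after Benjamini-Hochberg adjustment 0 in all 4. At an unadjusted 0.05 that t-test called 5 in M1 and 4 over the stimuli. With no replicate block for culture it was 5 in M1 and 1 in M2. Leaving out 1 array gave 1 to 3 in Con, 4 to 6 in M1 and 0 to 3 in M2. For M1 against Con in WT (7 called) it was 4 with quantile normalization, 4 with no replicate block, 2 with the adjusted t-test and 5 to 7 without 1 array, and for KpCKO (7 called) 0 with that t-test. For M2 against Con in WT (3 called) it was 0 with that t-test and 2 to 3 without 1 array. For M2 against Con in KpCKO (4 called) it was 2 each with normexp, no filter on dim genes, no replicate block, the t-test at 0.05 and a fold above 2, 0 with only the arrays compared and with the adjusted t-test, and 1 to 3 without 1 array. For the M1 interaction (0 called) it was 0 to 1 without 1 array. The cause of these moves was not tested, apart from fits with fewer arrays. Of all genes called for KpCKO against WT in M1, 46.3% rose as scaled here and 60.1% with quantile normalization. With normexp the share that rose went from 66.6% to 54.9% for that comparison in M2, from 51.2% to 61.4% for M2 against Con in WT and from 55.6% to 66.2% in KpCKO. Probes not well above background have no order, which leaves Ggt1 unmeasured.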

Other observations

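The genotype difference was larger in culture 1 than in culture 2 for 21 of the 24 pairs of a gene and a stimulus in which KpCKO exceeded WT on average, with medians of 1.28 and 0.99. The gap was widest for Slc7a11 in Con (3.84 and 2.50) and in M2 (3.34 and 2.32). Abcc4 went the other way under each stimulus (0.83 and 0.92 in Con, 1.33 and 2.33 in M1 and 0.50 and 0.66 in M2). Among all genes with a mean difference above 0, the share with the larger difference in culture 1 was 47.0% in Con, 58.5% in M1 and 60.7% in M2, and among those above 0.5 it was 50.6%, 52.9% and 60.3%. The Keap1 difference was -1.46 and -1.45 in Con, -1.67 and -1.76 in M1 and -1.70 and -1.92 in M2. Each culture had 1 mouse of each genotype and 1 sex, so these are values with no test.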
